A study of Mus musculus with 10 samples.

Results

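Of the 389 differentially methylated regions (DMRs) in the deposited table, 237 (60.9%) lay more than 20 kb from the nearest listed transcription start site (TSS), and they are described here as the far DMRs. They were chosen by the size of the listed distance alone, after the rows were reduced to distinct positions, and the sign and size of the methylation difference took no part in the choice. The other 152 DMRs, within 20 kb of a TSS, served for comparison. The study asked whether arsenite given to pregnant mice alters DNA methylation in the sperm of their sons. It measured sperm DNA of 15 to 17 week old F1 mice of the inbred strain C3H/HeN by reduced representation bisulfite sequencing (RRBS), 5 from control dams and 5 from dams treated with arsenic, and the labels name no transgene or other allele in either group. These libraries belong to a second experiment of the study, and all come from 1 mouse strain. A DMR in the table holds 3 or more CpGs, at least 1 differentially methylated cytosine (DMC) and a difference of more than 10 percentage points between the groups.

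The table gives 1 difference per DMR and no value of a single mouse. The spread between mice and the read depth behind each difference are therefore unknown here, and the purity of the sperm could not be checked against marker genes. For this second experiment the paper describes sperm pushed out of the cauda epididymis with needles and then centrifuged, and it names no swim-up step there. The order of subtraction between control and arsenic is not stated in the table, so DMRs are called positive or negative by the sign as deposited. Tests and intervals below compare DMRs within the list. They are not tests of arsenic, and DMRs that share sequence are not independent of each other.

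CpGs far from a TSS lie in gene bodies, in enhancers and in the long stretches between genes, where much of the sequence consists of copies of transposable elements. In mammalian sperm most such CpGs are methylated, whereas CpG islands at promoters are mostly not. Methylation of the male germ line is erased in primordial germ cells of the fetus and set again before birth in the precursors of spermatogonia, and silencing of transposable elements is part of that process. RRBS reads bisulfite-treated MspI fragments, which start and end at CCGG, so that it samples CpG-rich sequence and only part of the remote genome.

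The reference sequences of 8 far DMRs are shown first, because 7 of them are single-copy DMRs among the largest differences of either sign or with most DMCs, and the last is a multi-copy DMR. Each runs 5′ to 3′ on the plus strand of GRCm38 (mm10), with CpGs in capitals, and was extended by a base where needed so that the outer CpGs are whole. The reference is of another strain than C3H/HeN, so single bases may differ in these mice. The first 3 have positive differences, the next 4 negative ones, and the last is the DMR with the largest listed TSS distance.
9330111N05Rik, 31.5 points (chr13:81195022-81195077): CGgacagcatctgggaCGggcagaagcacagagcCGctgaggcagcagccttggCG
Map4k1, 26.5 points (chr7:29005620-29005672): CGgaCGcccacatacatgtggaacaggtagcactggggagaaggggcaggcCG
Mmd, 22.8 points (chr11:90167092-90167305): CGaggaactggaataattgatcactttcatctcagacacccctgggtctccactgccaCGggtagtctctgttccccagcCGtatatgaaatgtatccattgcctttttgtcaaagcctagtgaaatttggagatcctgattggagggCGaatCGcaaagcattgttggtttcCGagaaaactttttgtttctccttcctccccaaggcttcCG
Cntn4, -22.8 points (chr6:106237731-106237769): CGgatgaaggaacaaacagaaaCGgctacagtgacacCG
Foxl1, -21.5 points (chr8:121311025-121311064): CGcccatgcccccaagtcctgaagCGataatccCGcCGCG
Hand1, -16.9 points (chr11:57864659-57864739): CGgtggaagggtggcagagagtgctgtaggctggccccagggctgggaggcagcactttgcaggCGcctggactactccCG
Rplp1, -13.6 points (chr9:61756957-61757114): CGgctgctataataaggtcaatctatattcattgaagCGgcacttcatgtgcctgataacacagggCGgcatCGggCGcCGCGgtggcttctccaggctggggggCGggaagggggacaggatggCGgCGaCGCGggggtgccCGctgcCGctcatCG
Lrrtm1, 10.2 points (chr6:75596358-75596538): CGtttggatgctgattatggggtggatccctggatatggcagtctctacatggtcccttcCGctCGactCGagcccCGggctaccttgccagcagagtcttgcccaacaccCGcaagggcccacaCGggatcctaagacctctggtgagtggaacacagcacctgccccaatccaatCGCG

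The first 7 of these had a median of 1 copy in the reference, and the Lrrtm1 DMR had a median of 488 copies. To count copies, every 30-base window was searched for in the whole reference, on either strand, and the median over the windows was taken. DMRs under 100 bp were widened to 100 bp for this, so a median of 1 does not mean that every window is unique. The 9330111N05Rik DMR so widened shared 13 windows with the Pcdh18 DMR, which had a median of 587 copies. Several of the largest differences rested on few CpGs, with 4 at 9330111N05Rik, 3 at Map4k1, 3 at Cntn4 and 5 at Foxl1, whereas the Gria4 DMR (24.7 points) held 13 CpGs and the BC061237 DMR (22.6 points) held 8. Only the Lrrtm1 stretch holds the MspI site CCGG inside it, and the other 7 lie between such sites.

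A pair of 30-base stretches shows how the far DMRs are related in sequence. The first is the stretch found in most DMRs, and the second is the one found in most DMRs that do not hold the first. Both lack a CpG and are written in lower case on the strand that comes first in the alphabet.
stretch in 7 DMRs: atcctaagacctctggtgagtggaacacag
stretch in 5 DMRs: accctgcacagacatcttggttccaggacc
The first stretch occurred 2960 times in the reference, 306 times on chromosome X and 205 times on Y. It lay in 6 far DMRs, next to Acot10, Rprl2, Tnc, Kcnd2, Lrrtm1 and Gm7134, and in 1 near DMR, next to Vmn1r65. All 7 differences were positive, from 10.2 points at Lrrtm1 to 12.3 points at Tnc. The second stretch occurred 114 times and lay in the far DMRs next to Rfpl4b, Rsrc1, Melk and Nucb2 and in the near DMR next to Olfr1126. Their differences were also all positive, from 10.4 points at Nucb2 to 16.4 points at Olfr1126.

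By exact sharing of at least one 30-base stretch within the listed bounds of the DMRs, without the widening of short DMRs used for copy numbers, 75 of the 389 DMRs fell into 13 groups, and 61 of these 75 were far. Such sharing touched 61 of 237 far DMRs (25.7%) and 14 of 152 near DMRs (9.21%). The largest group held 40 DMRs, 34 of them far. Of the 40, 39 were positive, beside 85.7% of all far and 78.3% of all near DMRs. The next group held 5 far DMRs, next to 4931408C20Rik, Myl1, Rfpl4b, Adarb2 and 6030498E09Rik, of which 3 were positive and 2 negative. Shared sequence thus did not always go with 1 sign. Reads from such copies may be placed at a copy other than their own, and the part of this in the listed differences was not tested.

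Among the far DMRs 203 were positive and 34 negative, a positive share of 85.7% (exact 95% interval 80.5 to 89.9). Their sizes were close to the 10-point minimum of the list, with a median of 11.8 points and quartiles of 10.8 and 14.1. Only 37 of the 237 reached 15 points and 10 reached 20 points. Most rested on a single DMC (172, 72.6%), 56 (23.6%) held the minimum of 3 CpGs, and in 2 every listed CpG was a DMC. Among near DMRs 65.1% held a single DMC and 17.8% held 3 CpGs. The distance of the far DMRs to the TSS had a median of 81996 bp and ran from 20066 to 1646179 bp.

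**Figure D1:**
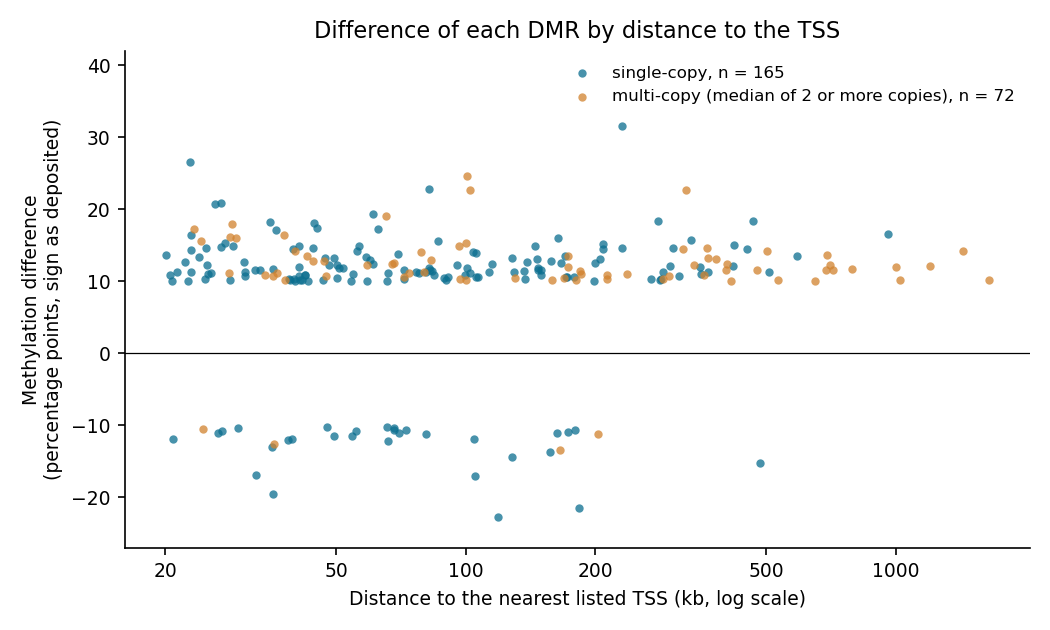
Methylation difference of each of the 237 far DMRs (vertical axis, percentage points with the sign as deposited) against its distance to the nearest listed TSS (horizontal axis, kb on a log scale), coloured by copy number. The empty band between -10 and 10 points is the minimum of the list. Of the 55 DMRs beyond 200 kb only 2 lie below 0.

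The largest positive differences lay in unlike places. The DMR listed under the noncoding RNA gene 9330111N05Rik (31.5 points, 3 of 4 CpGs called DMCs) sat 230948 bp from that TSS, inside an intron of Adgrv1, an adhesion receptor of sensory hair cells and photoreceptors. All of its bases were repeat-masked and part of them recurred in the multi-copy Pcdh18 DMR, although its median copy number was 1. The Map4k1 DMR (26.5 points, 1 DMC) sat in a coding exon of Ryr1, the calcium release channel of skeletal muscle, and Map4k1 itself encodes a kinase of blood cells. The Mmd DMR (22.8 points) lay 82171 bp upstream of its gene, and all 5 of its listed CpGs were DMCs. The Ctsl DMR (20.8 points), near a lysosomal protease gene, and the Zfpm1 DMR (20.7 points), near a cofactor of GATA factors, were single-copy as well. The Tnfrsf21 DMR (19.3 points) lay in an intron of its own gene, which encodes a death receptor.

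Of the 10 largest positive DMRs 4 were multi-copy, close to the share over all positive far DMRs (68 of 203, 33.5%). They were the Gria4 DMR (24.7 points, median of 79 copies), the BC061237 DMR (22.6 points, 3 copies), the Ddx18 DMR (22.7 points, 2 copies) and the Gm14525 DMR on chromosome X (19.1 points, 4 copies). Gria4 encodes a subunit of AMPA-type glutamate receptors and Ddx18 an RNA helicase. The BC061237 DMR lay in an exon of an annotated noncoding gene.

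The largest negative differences were mostly single-copy and unmasked, as were the negative far DMRs in general. Of all 34 negative far DMRs 4 (11.8%) were multi-copy and 6 (17.6%) over 50% masked. Among the 10 largest, only the Gabrg3 DMR was multi-copy (-13.5 points, 2 copies). It and the Nbea DMR (-15.2 points) were the 2 with over 50% of their bases repeat-masked. The Cntn4 DMR (-22.8 points) lay in an intron of its gene, which encodes a neuronal adhesion protein. The Ezr DMR (-19.5 points) lay in an intron of the gene for ezrin, a linker of membrane and actin, and the Mecom DMR (-13.0 points) in an intron of the gene for a zinc finger factor of blood stem cells. The Foxl1 DMR (-21.5 points) and the Klf7 DMR (-17.1 points) lay in introns of long noncoding genes. The Hand1 DMR (-16.9 points) and the Inhbb DMR (-14.4 points) lay outside annotated genes. The Rplp1 DMR differed from these in the number of cytosines behind it: 17 CpGs with 5 DMCs and a difference of -13.6 points, with its nearest TSS 157396 bp away and a processed pseudogene within 5970 bp.

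**Figure D2:**
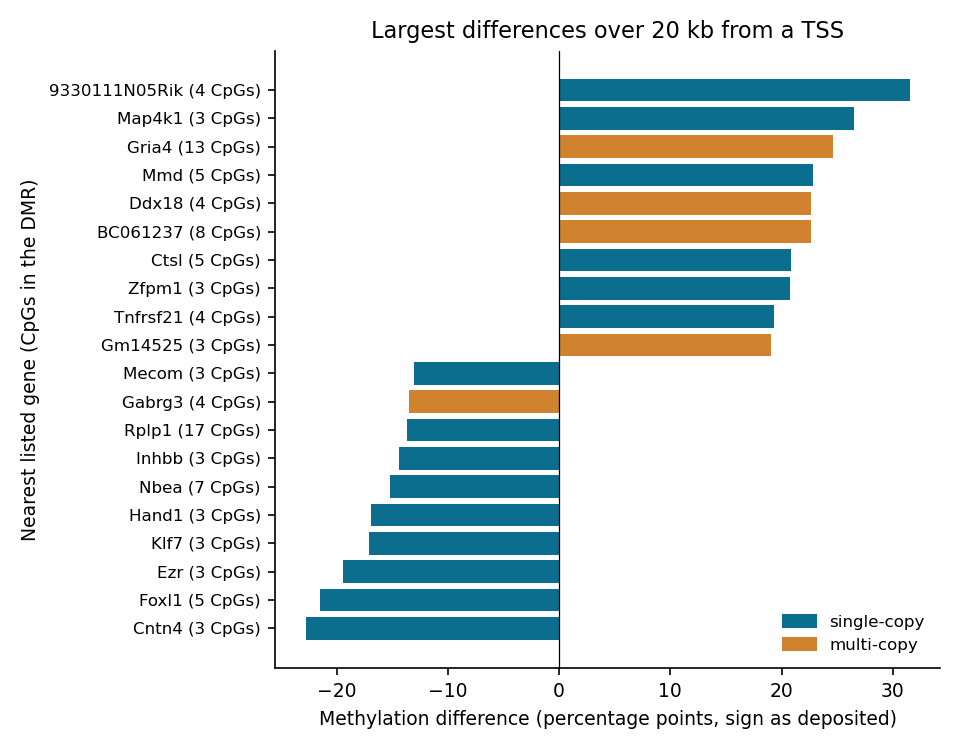
The 10 largest positive and the 10 largest negative differences among the far DMRs (horizontal axis, percentage points), each bar 1 DMR named by its nearest listed gene with its number of CpGs. Bars run from 31.5 points at 9330111N05Rik to -22.8 points at Cntn4, and most rest on 3 to 5 CpGs.

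Of the 5 far DMRs with most listed CpGs, 1 had a large difference. Listed CpGs are cytosines on either strand, and a ranking by CpG sites would differ. The reference has 28 sites at Tiam1, 13 at 5133400J02Rik, 34 at Mtcl1, 14 at Aktip and 22 at Oxtr. The Nucb2 DMR, with 15 listed CpGs, has 32 sites. The Tiam1 DMR, in a coding exon of the gene for an activator of the GTPase Rac, held 31 CpGs with 3 DMCs and differed by 17.2 points. The DMRs next to 5133400J02Rik (24 CpGs, 10.1 points), Mtcl1 (23 CpGs, 10.6 points), Aktip (21 CpGs, 11.7 points) and Oxtr (20 CpGs, 11.2 points) stayed below 12 points. Oxtr encodes the oxytocin receptor, but the DMR lay 73793 bp from its TSS, across an annotated processed pseudogene. The DMRs chosen for 5 DMCs each were those next to Mmd, Clic6 (14.6 points), Rplp1, Ino80d (11.2 points), which encodes a subunit of a chromatin remodelling complex, and Cenpe (11.1 points), which encodes a kinetochore motor. A DMR next to Ddx25, a helicase of round spermatids, also had 5 DMCs (10.2 points) but lay 41555 bp from that TSS and in a coding exon of Gm1113.

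The 5 farthest DMRs had features in common. They lay 1646179 bp from the TSS of Lrrtm1, a synaptic adhesion gene, 1437476 bp from Diap2, an actin nucleator, 1200669 bp from Efna5, an ephrin ligand, 1026505 bp from Gm20854 on chromosome Y and 1000071 bp from Dsel, an enzyme of dermatan sulfate synthesis. All 5 were positive, wholly repeat-masked, outside annotated genes and multi-copy, with medians of 488, 137, 31, 165 and 15 copies. Their differences were 10.2, 14.2, 12.2, 10.2 and 11.97 points. The shared features were common at such distances and not particular to these 5. Of the 16 far DMRs more than 500000 bp from the listed TSS, 16 were positive and 13 were multi-copy. Mostly repeat-masked were 15 of the 16, and 15 lay outside annotated genes. By current RefSeq the nearest TSS to the Dsel DMR was 448071 bp away, so its place here rests on the listed distance. Just inside the 20 kb limit of the far DMRs were those next to Park7 (20066 bp, 13.6 points), F830045P16Rik (20467 bp, 10.9 points) and C9 (20673 bp, 10.1 points). Just outside it were those next to Ggt5 (19858 bp, 10.7 points), Sbk1 (19853 bp, 15.0 points) and Hbp1 (19659 bp, 11.4 points). These 6 were positive and single-copy alike.

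Far DMRs were more often repeated sequence than near DMRs. Over 50% of the bases were repeat-masked in 88 of 237 far DMRs (37.1%, exact 95% interval 31.0 to 43.6) and in 20 of 152 near DMRs (13.2%, interval 8.23 to 19.6). The odds ratio was 3.89 (interval 2.22 to 7.05; two-sided Fisher's exact test, Benjamini-Hochberg adjusted p = 1.36e-06 over 10 comparisons). A median of 2 or more copies was found in 72 far DMRs (30.4%) and 15 near DMRs (9.87%), with an odds ratio of 3.97 (interval 2.14 to 7.81, adjusted p = 7.56e-06 in the same exact test). Both measures describe much the same DMRs, since 69 of the 72 multi-copy far DMRs were also over 50% masked. Among single-copy DMRs the repeat-masked shares no longer passed the test (odds ratio 2.09, adjusted p = 0.401 by Fisher's exact test), and with the distance taken to any GENCODE TSS the multi-copy call was lost (odds ratio 1.62, adjusted p = 0.118). With 1 DMR kept from each group of shared sequence, 186 far and 141 near, the odds ratios were 3.69 and 3.67 (adjusted p = 0.00116 and 0.00467 by Fisher's exact test).

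This contrast has to be read beside what RRBS can measure. Among 272798 predicted MspI fragments of 40 to 220 bp with 3 or more CpGs, 54.3% of those over 20 kb from a RefSeq TSS were over 50% repeat-masked and 12.2% of the others. With DMRs placed by that same distance the shares were 37.6% of 229 far DMRs (interval 31.3 to 44.2) and 13.8% of 160 near DMRs. The share of far DMRs in masked sequence was thus below that of the far fragments, while the near shares were alike. Of all fragments 45.5% were far, compared with 58.9% of DMRs (interval 53.8 to 63.8). These fragments are an approximation, as the sites that reached the authors' coverage minimum were not used here.

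GC content was the other feature that passed the test. It was above the median of the whole table, 55.6%, in 104 far DMRs (43.9%) and in 89 near DMRs (58.6%), with an odds ratio of 0.55 (interval 0.36 to 0.85, adjusted p = 0.0170, Fisher's exact test). The median GC content was 54.3% in far and 57.3% in near DMRs. Predicted fragments differed in the same direction, with medians of 55.7% and 60.9%. The GC call was lost at a 50 kb limit (odds ratio 0.61, adjusted p = 0.0576 by Fisher's exact test), and the direction turned with the distance taken to any GENCODE TSS (odds ratio 1.17, adjusted p = 0.580).

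The remaining 7 comparisons did not pass. A positive difference was listed for 85.7% of far and 78.3% of near DMRs (odds ratio 1.65, interval 0.94 to 2.91, adjusted p = 0.147, Fisher's exact test). More than 6 CpGs were held by 36.7% and 46.7% (odds ratio 0.66, interval 0.43 to 1.02), and 2 or more DMCs by 27.4% and 34.9% (0.71, interval 0.44 to 1.12). A length above 137 bp was listed for 46.4% and 55.3% (0.70, interval 0.46 to 1.08). The size of the difference had the same median of 11.8 points in both classes, with 49.8% and 50% above the table median (0.99, interval 0.65 to 1.52). CpG density (1.08, interval 0.70 to 1.66) and an upstream position (1.30, interval 0.84 to 2.01) also had intervals that held 1. These intervals leave room for differences of moderate size, in either direction for the size of the difference and for CpG density. For CpGs, DMCs and length they reached little above 1. For the positive share and the upstream position they reached little below 1.

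**Figure D3:**
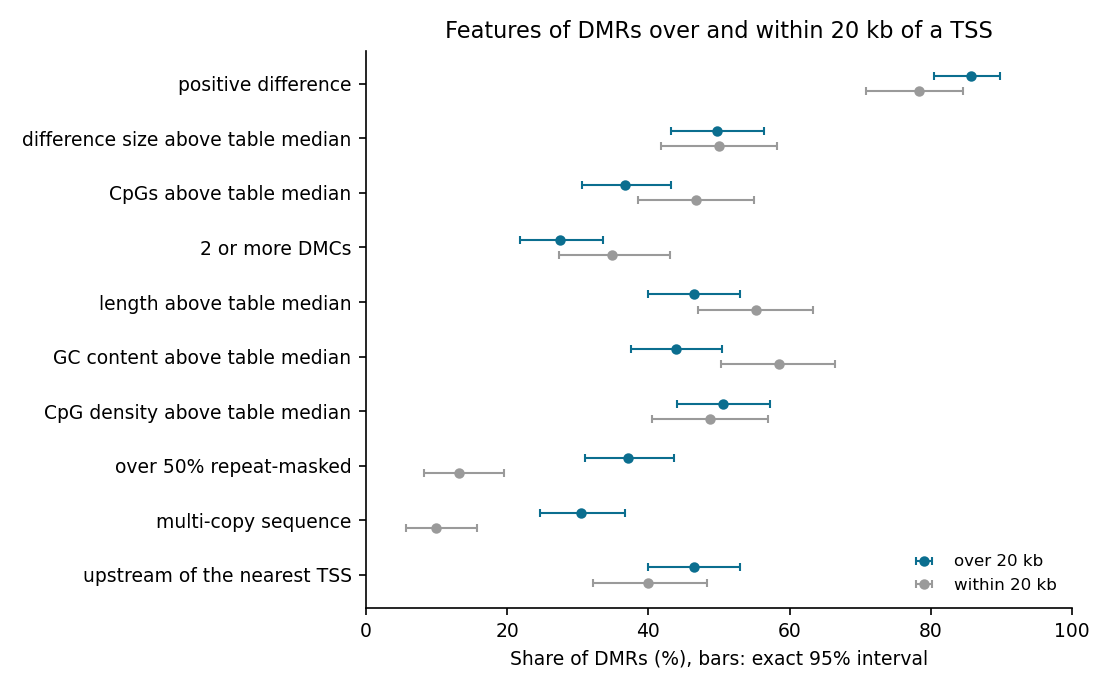
Share of DMRs with each of 10 features (horizontal axis, percent) among the 237 DMRs over 20 kb and the 152 within 20 kb of a TSS, points with exact 95% intervals. Repeat-masked and multi-copy sequence were more frequent, and high GC content less frequent, in the far class.

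Within the far DMRs, repeat content changed with distance in steps. Over 50% of the bases were masked in 20 of 79 DMRs at 20 to 50 kb (25.3%), 14 of 53 at 50 to 100 kb (26.4%), 15 of 50 at 100 to 200 kb (30%), 24 of 39 at 200 to 500 kb (61.5%) and 15 of 16 beyond 500 kb (93.8%). The predicted fragments had 36.8%, 46.7%, 60.1%, 77.1% and 89.98% over the same distances. In the first 4 classes the exact interval of the DMR share ended below the fragments' value, most clearly at 100 to 200 kb (17.9 to 44.6). Beyond 500 kb the values were close, in only 16 DMRs. The DMRs were placed by the listed TSS and the fragments by RefSeq TSSs.

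The sign showed a step as well. Positive differences made up 83.5%, 83.0% and 80.0% of the DMRs in the first 3 distance classes, and 94.9% and 100.0% in the last 2. Beyond 200 kb the exceptions among 55 DMRs were the Nbea DMR and the DMR next to 6030498E09Rik on chromosome X (-11.2 points). At the 100 kb limit that had been set for this question, 93 of 105 DMRs (88.6%) beyond it and 110 of 132 (83.3%) within it were positive, and this difference did not pass the test (odds ratio 1.55, interval 0.69 to 3.63, p = 0.270, Fisher's exact test). A limit of 200 kb, chosen after the distance classes had been seen, gave an odds ratio of 5.63 (p = 0.00785 by Fisher's exact test), which for that reason is a description.

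**Figure D4:**
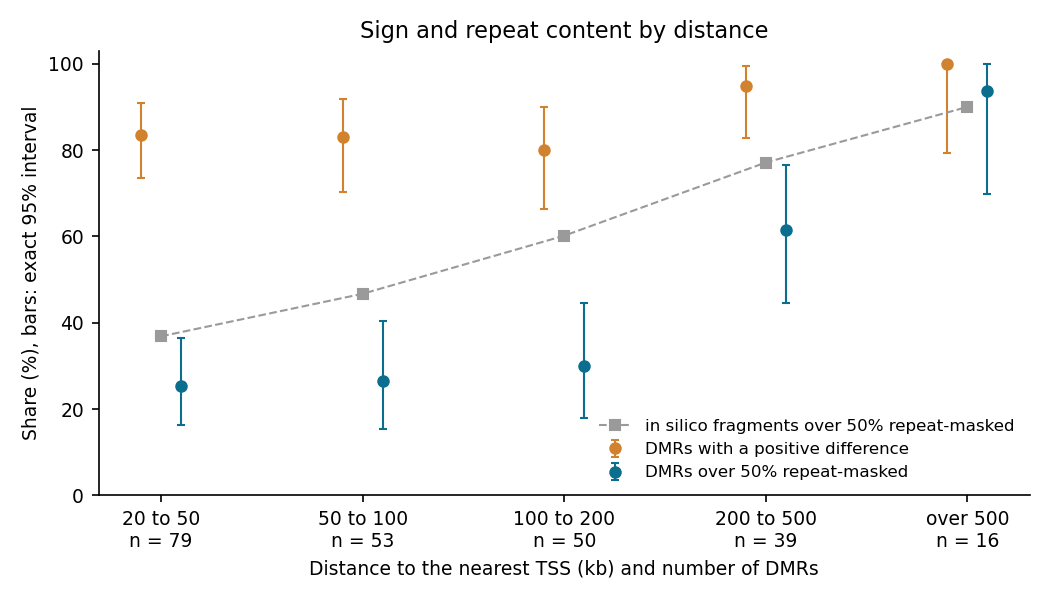
Share of far DMRs with a positive difference and share with over 50% of the bases repeat-masked (vertical axis, percent, exact 95% intervals) in 5 classes of distance to the TSS, with the masked share of predicted MspI fragments as squares. The masked share of DMRs stays between 25.3% and 30% up to 200 kb and reaches 93.8% beyond 500 kb.

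Positive far DMRs were more often repeat-masked than negative ones. Of the positive far DMRs 82 of 203 (40.4%) were over 50% masked, and of the negative ones 6 of 34 (17.6%), with an odds ratio of 3.15 (interval 1.21 to 9.72, p = 0.0122, two-sided Fisher's exact test). The same relation over the whole list was known before, so the far DMRs are no separate evidence for it. It was lost with 1 DMR per group of shared sequence (odds ratio 2.21, p = 0.240 by Fisher's exact test), and the direction turned among DMRs with 2 or more DMCs (odds ratio 0.65, p = 0.717). Multi-copy sequence made up 68 of 203 positive (33.5%) and 4 of 34 negative far DMRs (11.8%). The negative far DMRs were shorter, with a median listed length of 89.5 bp compared with 137 bp, and held a median of 4 CpGs compared with 6.

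Gene context is bound to the distance by construction, so it is described without a test between classes. Of the far DMRs 141 (59.5%) lay outside genes of the GENCODE annotation, 55 (23.2%) in introns, 17 (7.17%) in coding exons, 20 (8.44%) in exons of noncoding genes and 4 in UTRs or noncoding exons of coding genes. By RefSeq gene bounds, only 43 of the 237 (18.1%) lay inside the gene whose TSS was listed as nearest, 38 of them downstream. By GENCODE, the DMR overlapped another gene and not the listed one in 51 (21.5%), as with Adgrv1 and Ryr1 above. DMRs that overlapped both the listed gene and another are not in this count. The annotations differ, so these counts need not add up. Of the 17 in coding exons, 13 lay in an exon of the nearest gene. Of these 11 were positive, from 10.4 points at Ajap1 to 17.2 points at Tiam1, and 2 were negative, at Hivep2 (-11.01 points) and Lbr (-11.96 points).

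The sign differed most between introns and sequence outside genes. Outside genes 131 of 141 far DMRs (92.9%, interval 87.3 to 96.5) were positive, in exons 35 of 41 (85.4%, interval 70.8 to 94.4) and in introns 37 of 55 (67.3%, interval 53.3 to 79.3). Of the negative far DMRs 18 of 34 (52.9%) were intronic. Near DMRs had the lowest positive share in introns as well, 22 of 39 (56.4%, interval 39.6 to 72.2). Outside genes 65 of 69 far DMRs over 50% masked (94.2%) and 66 of 72 others (91.7%) were positive. These shares were examined after the data had been seen and carry no test.

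**Figure D5:**
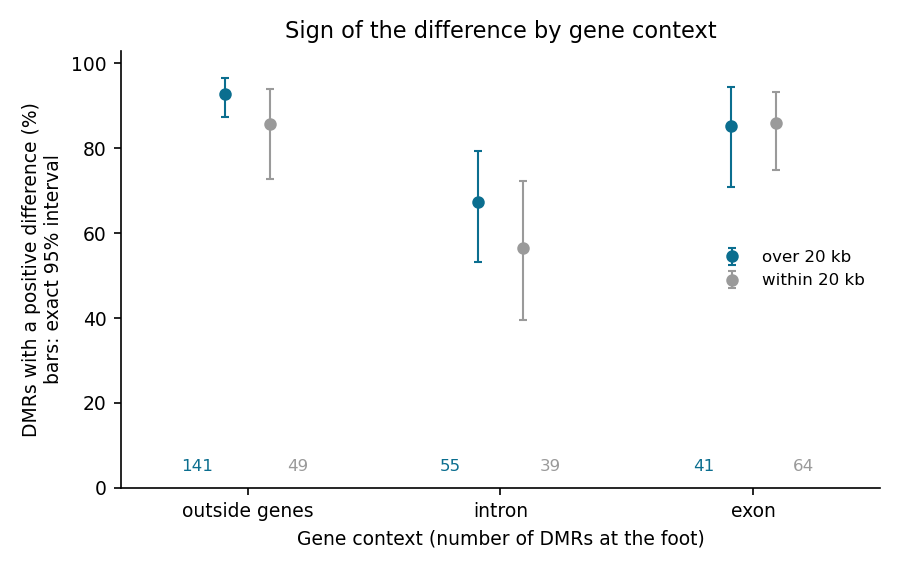
Share of DMRs with a positive difference (vertical axis, percent, exact 95% intervals) outside genes, in introns and in exons, for the 237 DMRs over 20 kb and the 152 within 20 kb of a TSS. Introns have the lowest share in both classes, 67.3% and 56.4%.

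The label of the far DMRs depends on the annotation. Of the 237, 229 were also more than 20 kb from a GENCODE TSS of a protein-coding gene and 228 from a current RefSeq TSS, but only 141 (59.5%) were more than 20 kb from every GENCODE TSS. In the other 96 the TSS within 20 kb belonged to a pseudogene in 45, to a long noncoding or unclassified transcript in 33, to a small RNA in 13 and to a protein-coding gene in 5. A GENCODE TSS lay inside 10 far DMRs, most of them starts of pseudogenes and long noncoding transcripts, such as those at Epha7 (10.8 points), Limch1 (11.1 points), Oxtr and Vgll3 (12.7 points). At Chst3 (14.7 points), a sulfotransferase gene, it was a start of the coding gene itself. Most far DMRs, but not all, are thus far from the start sites of coding genes, and many are close to another annotated transcript.

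Read by nearest gene, the far DMRs spread over 229 gene entries, and no entry had more than 2. The 8 entries with 2 far DMRs were Lbr, Rfpl4b, Ube2e2, Tiam1, Gm9926, Gm12669, Runx1t1 and 8430436N08Rik. In 7 of these both DMRs were positive, for example Rfpl4b (11.7 and 11.1 points, 792495 and 65942 bp from the TSS) and Ube2e2 (11.3 and 10.4 points). At Lbr, the lamin B receptor gene, the signs differed: -11.96 points in its coding exon and 12.9 points in a DMR 59731 bp downstream. The nearest gene is only a label of position at such distances.

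The gene lists are given as counts beside the far share of the whole table, 60.9%. Over all far DMRs 85.7% were positive and 30.4% were multi-copy. They were matched by symbol or name stem and do not hold every gene of their kind. Of the DMRs whose nearest gene was on the list of developmental transcription factors, all 9 were far, 5 positive and 4 negative. They included Foxl1, Sox1 (18.1 points), a factor of neural progenitors, Klf7 and Hand1, and the list's name stem also took in 2 DMRs at the corepressor gene Runx1t1 (13.2 and 10.1 points). Prdm1 (11.6 points), Ebf2 (-11.5 points) and Tbx15 (10.1 points) completed the list. Prdm1 is needed for the founding of primordial germ cells in mice, and its DMR lay 82578 bp upstream. Their median size was 13.2 points, compared with 11.8 over all far DMRs.

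The listed neuronal adhesion genes had 4 far DMRs and 1 near: Cntn4, Pcdh20 (11.99 points), Pcdh18 (10.7 points) and Lrrtm1. The listed ion channel and neurotransmitter receptor genes had 6 far and 4 near, not counting channel genes outside the list such as Cngb3 (11.5 points), with Gria4, Drd1 (14.5 points), a dopamine receptor, Gabrg3 and Kcnd2 (11.6 points), a potassium channel, the 4 largest. Of the 6, 4 were multi-copy, beside 30.4% of all far DMRs. Olfactory and vomeronasal receptor genes had 3 far and 7 near, and all 3 far were multi-copy: Olfr1324 (17.9 points), Vmn2r50 (15.6 points) and Vmn2r53 (14.2 points).

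MicroRNA genes were nearest to 5 far and 2 near DMRs. The far ones were at Mir760 (14.9 points), Mir669m-1 (12.1 points), Mir6414 (11.3 points), Mirlet7i (10.96 points) and Mir100 (-10.8 points). None of these 5 was multi-copy, beside 30.4% of all far DMRs. The Mirlet7i DMR, 25189 bp from this let-7 gene, had 3 DMCs among 5 CpGs, and the Mir760 DMR had 4 among 10. The lists held 1 far DMR each for snoRNA genes (Snord14d, 13.1 points), zinc finger genes (Zfp827, -10.2 points), growth factors (Inhbb) and spermatogenesis (Ddx25). None of the listed imprinted genes, genes of the piRNA or DNA methylation machinery, or genes of arsenic metabolism and oxidative stress was nearest to a far DMR. The imprinted list and the piRNA and methylation list had 0 near DMRs as well, so their absence is not particular to far DMRs. The list of arsenic metabolism and oxidative stress had 2 near DMRs. Park7, which has a known role in oxidative stress and was named above at the 20 kb limit, was not on the last of these lists. RIKEN clone genes were nearest to 27 far and 22 near DMRs, and predicted genes (Gm) to 16 far and 4 near. All 16 of the latter far DMRs were positive, beside a positive share of 85.7% over all far DMRs.

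By chromosome, far DMRs made up between 39.3% of the DMRs on chromosome 7 (11 of 28) and all 12 on chromosome 14. On chromosome X 11 of 16 DMRs were far, and on chromosome Y all 3. Of the 11 on X, 10 were positive (90.9%), 9 were over 50% masked (81.8%) and 10 were multi-copy (90.9%). Over all far DMRs these shares were 85.7%, 37.1% and 30.4%, so the positive share on X was near the general one. The only X DMR that was not multi-copy lay next to 4932411N23Rik (13.1 points, 1 copy). The X DMR next to Aff2 (14.1 points) had a median of 12889 copies. The others on X were at Gm14525, Olfr1324, Ube2dnl2 (14.7 points), Diap2, Brwd3 (13.1 points), Gm14743 (12.8 points), Gm7134 (12.3 points), Usp51 (10.3 points) and 6030498E09Rik. On Y they were at Gm20815 (15.3 points), Gm20738 (14.9 points) and Gm20854 (10.2 points), and the last 2 had the same median of 165 copies. Whether a read from such copies came from its listed chromosome was not tested. Without X and Y the contrast between 223 far and 147 near DMRs in repeat-masked sequence stayed past the test (odds ratio 3.27, adjusted p = 0.000104, Fisher's exact test).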

How the data were processed

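RRBS was run on sperm DNA of 5 control and 5 arsenic F1 mice. Per the paper's methods and the submitters' processing notes, the authors used Trim Galore for trimming and Bismark for alignment to mm10, kept CpGs covered at least 10 times in all samples, and took DMCs from methylKit and DMRs from eDMR. Version 2.25.0 of bedtools is named in the submitters' notes only, as the paper's methods give another version. The authors' deposited table gives whole-number counts of CpGs and DMCs per DMR, a signed difference in percentage points, a length and a TSS distance. It has 0 columns of single mice. The CpG counts are of cytosines on either strand, since in 71 far DMRs they exceed the reference CpG sites.

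Its 465 rows were reduced to 389 DMRs by position. Of 451 transcript accessions 446 matched the RefSeq gene table, and 1 symbol was read from its accession. Listed starts were shifted by 1 bp to count from 1. Sequence, masking (lower-case bases) and copies came from GRCm38, with DMRs under 100 bp widened to 100 bp for copies, and gene context from GENCODE vM21 basic, exon before intron. Upstream and downstream follow the gene's strand. Shares were compared with two-sided Fisher's exact tests, conditional odds ratios and 95% intervals, with Benjamini-Hochberg adjustment over the 10 far against near comparisons. Measured quantities were compared as above the table median. Intervals cover the counting of DMRs only, and depth per sample was not available from the table used here. The calculation was tested on simulated lists. Alternatives were other TSS limits and annotations, stricter DMRs, leaving out chromosomes X and Y, single-copy DMRs and 1 DMR per gene.

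The far DMRs and the gene lists were chosen with earlier results of these data known. DMRs were named by rule: the 10 largest of each sign, the 5 farthest, the 5 with most CpGs and with most DMCs, those on X and Y, up to 4 per gene list, genes with 2 far DMRs and the 3 on each side of 20 kb. Those named for a coding exon, for a gene outside a list, an overlapping TSS, shared sequence or as further list members were chosen after their values were seen. Tests used scipy 1.17.1 and copy counts numba 0.67.0, under Python 3.11.15 with pandas 2.3.3 and numpy 2.4.6. Plots were drawn with matplotlib 3.10.9.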

Additional observations from a re-analysis of the deposited data

How the results depend on the processing

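Odds ratios of Fisher's exact tests, far over near unless stated, are given where a call or a direction changed. Calls rest on adjusted p-values, and inside the far DMRs on unadjusted ones. The causes were not tested. Repeat-masked sequence stayed more frequent in far DMRs in all 12 alternatives (2.09 to 5.69), short of the threshold at 15 points or more (2.88), with 2 or more DMCs (4.29) and in single-copy DMRs (2.09). Multi-copy sequence did so in all 11 (1.62 to 7.71), short of it with GENCODE TSSs (1.62), at 15 points (2.01) and with 2 or more DMCs (5.70). The GC call was lost at 50 kb (0.61), at 15 points (0.84), with 2 or more DMCs (0.57) and with 3 to 5 CpGs (0.67), and reversed with GENCODE TSSs (1.17).

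The positive share reversed at 15 points (0.83) and with 2 or more DMCs (0.46), without passing the threshold, and passed it with 3 to 5 CpGs (2.44). Difference size passed in no alternative (0.75 to 1.21) and changed side with GENCODE TSSs (1.01), 2 or more DMCs (1.14), single-copy DMRs (1.04), 1 DMR per gene (1.04), 3 to 5 CpGs (1.21) and 1 DMR per group of shared sequence (1.17). CpG number (0.56) and length (0.52) passed with GENCODE TSSs. DMC number reversed at 15 points (1.03) and with 3 to 5 CpGs (1.09), CpG density with 5 or more CpGs (0.84) and upstream position at 15 points (0.80), none passing.

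Inside the far DMRs, the sign beyond against within 100 kb reversed at 15 points (0.29), with 2 or more DMCs (0.77) and without DMRs beyond 200 kb (0.80), and passed with the limit at 200 kb (5.63). Repeat content by sign was lost at 15 points (3.50), with 5 or more CpGs (1.61), in single-copy DMRs (2.01) and with 1 DMR per group of shared sequence (2.21), and reversed with 2 or more DMCs (0.65). The settings by 3 to 5 CpGs, by shared sequence and by 200 kb were chosen after seeing the data. At 15 points only 37 far and 29 near DMRs remained, and with 2 or more DMCs 65 and 53. No sample could be left out, because the table has no values of single mice. No paired analysis was possible because the table has no columns of single mice.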
